A study of Mus musculus with 12 samples.

Results

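The deletion of Mcl1 was examined here as an effect common to livers with and without Sting1. All 12 libraries of the series were used. The 6 Mcl1-deleted livers (3 Mcl1Δhep and 3 Mcl1Δhep Sting1-/-) were set against the 6 Mcl1-intact livers (3 WT and 3 Sting1-/-), with the Sting1 genotype as a term of the model, and genes were kept when the change had the same direction in both Sting1 backgrounds. Of 15070 genes tested, 2056 were members by this rule. They are called shared genes below.

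The data are total RNA-seq read counts of whole mouse liver, with 1 library per mouse. In Mcl1Δhep mice a floxed Mcl1 gene is removed by a Cre recombinase under the albumin promoter, which is active in hepatocytes and their precursors. The study reported that the MCL1 protein left in these livers was found almost only in nonparenchymal (non-hepatocyte) cells. Sting1-/- mice lack Sting1 in every cell from the germline, and Mcl1Δhep Sting1-/- mice were bred by crossing both lines. No agent was given, and the labels state neither age nor sex. The study used mice of both sexes, and its text places the Mcl1Δhep transcriptome at an age of 2 months. No age was found there for the other sequenced livers. Each library held between 28826367 and 45266387 counts on genes, and the labels give no pairing of mice by replicate number.

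MCL1 is an antiapoptotic member of the BCL2 family. It holds the effectors BAX and BAK in check at the mitochondrion, and hepatocytes that lose it are prone to apoptosis. Lasting hepatocyte death is answered in liver by division of surviving hepatocytes, by recruitment of monocytes and macrophages that clear debris, and by matrix deposition from stellate cells. STING1 is the adaptor that relays the detection of cytosolic DNA by cGAS to type I interferon and NF-κB signalling. In bulk liver RNA, fewer cells of a type and less RNA per cell cannot be told apart.

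Expression is given as CPM (counts scaled to a common library size) with TMM factors, a scaling that corrects for differences in library composition. Sums of marker genes are CPM without these factors. Changes are log2 fold changes of Mcl1-deleted over Mcl1-intact libraries with their standard error (SE), and the adjusted p is the Benjamini-Hochberg value of edgeR's quasi-likelihood test over all 15070 genes, called when under 0.05. The p-values of the fit over all 12 libraries rest on the spread between these mice. That spread includes any difference of the Mcl1 effect between the Sting1 backgrounds. Mcl1 itself (chromosome 3, 95566026 to 95570487, GRCm39) had 90.2, 102 and 103.8 CPM in WT livers and 27.9, 33.96 and 24.98 CPM in Mcl1Δhep livers. In the Sting1-null background it had 78.3, 90.1 and 77.0 CPM in Sting1-/- livers and 18.1, 22.9 and 26.0 CPM in Mcl1Δhep Sting1-/- livers. Every Mcl1-deleted library was below every Mcl1-intact one, and the transcript fell by 1.82 on the log2 scale (SE 0.115, adjusted p = 1.44e-05), the lowest p of the table. Sting1 reads did not separate the Sting1 genotypes in the same way, with 2.11 to 5.997 CPM over the 6 Sting1-intact and 1.16 to 2.70 CPM over the 6 Sting1-null libraries, so its transcript level does not check the Sting1 labels.

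Several libraries stood apart in ways the genotypes do not give. WT replicates 2 and 3 and Mcl1Δhep Sting1-/- replicate 1 expressed Y-linked genes (142 to 147 CPM summed over 4 genes) and nearly no Xist, and the other 9 libraries had the reverse pattern, so sex moved with Mcl1 genotype in opposite directions in the backgrounds. Mcl1Δhep replicate 3 held 8952 CPM of pancreatic acinar markers and 1781 CPM of skeletal muscle markers, against at most 1.52 and 9.27 CPM in any other library. Small structured RNAs took 2.44 and 1.47% of counts in Mcl1Δhep replicates 2 and 3 and at most 0.961% elsewhere. The hepatocyte markers Alb, Apoa1, Ttr, Tat and Serpina1c together gave 73140 to 128800 CPM in the Mcl1-intact and 102400 to 130600 CPM in the Mcl1-deleted libraries, so all 12 samples were hepatocyte-rich liver.

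The first question was how many genes moved with Mcl1 over both backgrounds together. The quasi-likelihood test called 2056 genes (13.6% of those tested). Mcl1-deleted livers had 1310 of them at a higher level (8.69%) and 746 at a lower level (4.95%). The rises were larger than the falls, with a median of 1.09 against −0.57 on the log2 scale, and at least a 2-fold change was seen for 723 higher and 127 lower genes. All 2056 had the same sign in both backgrounds and 0 had opposite signs, which follows in part from the model, as a gene with opposite changes would seldom be called. The balance of directions depended on scaling: with upper quartile factors, which moved the median of all genes from −0.02 to 0.07, 1591 genes were higher and 370 lower. In the 9 libraries without Y-linked expression, 304 of the same 15070 genes were called, 249 higher and 55 lower. All 2056 genes kept their sign there, which follows in part from their selection, as these 9 are among the 12 libraries used to call them. With Y-linked expression as a covariate over all 12 libraries, 2001 genes were called, 1281 higher and 720 lower. Of the 2056 genes, 1817 kept their call in that fit.

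How far the single libraries of the called genes lay apart is given as a description only, since the genes were called on the same 12 libraries and the selection itself raises these counts. For 1267 of the shared genes (847 higher, 420 lower) the 3 Mcl1-deleted libraries did not overlap the 3 Mcl1-intact libraries in either background, with the same direction in both (over all tested genes, 9.87%). For 945 of them (621 higher, 324 lower) all 6 Mcl1-deleted libraries lay on 1 side of all 6 Mcl1-intact libraries (over all tested genes, 6.95%).

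Fits of each background on its own, which share no library, compared the backgrounds more directly. Between Mcl1Δhep and WT livers 1105 genes were called (7.33%), 779 higher and 326 lower, whereas between Mcl1Δhep Sting1-/- and Sting1-/- livers 17 genes were called (0.113%). The first count was 3547 without Mcl1Δhep replicate 1, 240 without Mcl1Δhep replicate 2, 170 without WT replicate 2 and 260 without WT replicate 3. The second was 388 without Mcl1Δhep Sting1-/- replicate 3 and 1 to 6 without any other Sting1-null library. Of the 1105 genes, 1025 (92.8%) had the same sign in the Sting1-null fit, beside 63.4% of all tested genes. Rises carried over for 750 of 779 genes (96.3%) and falls for 275 of 326 (84.4%). An unadjusted p under 0.05 in the Sting1-null fit with the same sign was found for 590 of the 1105 (53.4%), where 15.5% of all tested genes had such a p in either direction. In the Sting1-intact fit that share was 28.4%. Seen from the other side, 16 of the 17 genes called in the Sting1-null fit had the same sign in the Sting1-intact fit, 14 of them with an unadjusted p under 0.05. Over all tested genes the log2 fold changes of the separate fits had a Pearson r of 0.351, across genes, which are not independent replicates. The plot of the changes in both backgrounds shows the shared genes along the rising diagonal, a place largely fixed by the rule that chose them on the same libraries.

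**Figure D1:**
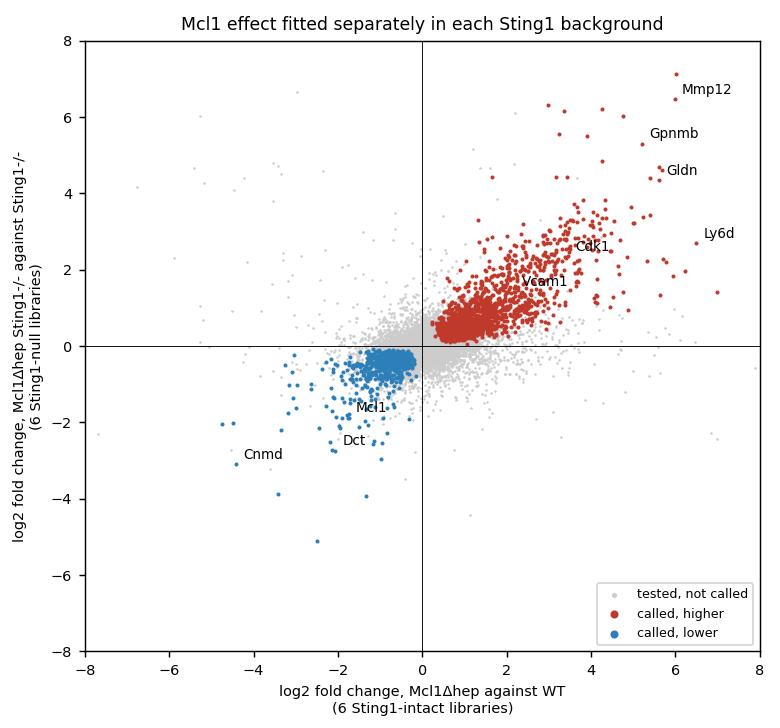
Log2 fold change of each tested gene in the Sting1-intact background (horizontal axis, Mcl1Δhep against WT) and in the Sting1-null background (vertical axis, Mcl1Δhep Sting1-/- against Sting1-/-), each fitted on its own 6 libraries. Red and blue points are genes called higher and lower over all 12 libraries, grey points are the other tested genes, and 24 genes, 2 of them called, lie outside the axes. The called genes fill the upper right and lower left quadrants, which follows largely from their selection on the same libraries. The grey points at upper left changed in opposite directions.

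Most shared genes had a smaller change in the Sting1-null than in the Sting1-intact background. Among the shared genes that rose, the median change was 1.36 on the log2 scale in the Sting1-intact and 0.80 in the Sting1-null background, and those that fell had medians of −0.76 and −0.40. The size was larger in the Sting1-intact background for 1743 of the 2056 genes (84.8%), beside 71.4% of all tested genes. The difference between backgrounds was tested gene by gene as an interaction, which edgeR called for 0 genes, with 2165 genes (14.4%) at an unadjusted p under 0.05, 442 of them shared, and a lowest adjusted p of 0.216. That count rested on single libraries: it was 1574 without Mcl1Δhep replicate 1 and 88 without WT replicate 1. It was 1 without Sting1-/- replicate 3. The part of sex and of the libraries that stood apart in this difference was not tested.

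The 80 genes called in the Sting1-intact fit with the opposite sign in the Sting1-null fit were looked at after their values were seen. Of these, 51 were lower in Mcl1Δhep than in WT livers, among them 8 genes of the major urinary protein family, which male livers express most, and 2 genes of the Y chromosome. In the male-biased liver list, 20 genes, the median change was −3.70 on the log2 scale in the Sting1-intact and 2.13 in the Sting1-null background, following the placement of the Y-linked libraries, whose part in these values was not tested, and 1 member, Mup3, was called over all 12 libraries. Mup3 had 2936, 10910 and 9400 CPM in WT and 622, 495 and 1561 CPM in Mcl1Δhep livers. In the Sting1-null background it had 3153, 2831 and 3685 CPM against 2889, 1185 and 1950 CPM, so that the groups overlapped there. Among the 23 genes of the female-biased liver list, 0 were called over all 12 libraries by edgeR or DESeq2, with 1 higher and 2 lower at an unadjusted p under 0.05 in edgeR. In the 9 libraries without Y-linked expression 3 of the 23 were called lower, with a list median of −1.03, and up to 6 were called lower under other alternatives. Of the male-biased list, 4 were called higher and 1 lower in those 9 libraries, with a list median of −0.25.

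The test was passed in each background on its own by 10 genes: Mcl1, Cnmd and Dct were lower, and Gldn, Gpnmb, Mmp12, Slc1a4, Akr1b1, Vcam1 and Ly6d were higher in Mcl1-deleted livers. For each of the 10, all 6 Mcl1-deleted libraries lay on 1 side of all 6 Mcl1-intact libraries, as the plot of these genes by library shows. The number of such genes was 0 when Mcl1Δhep Sting1-/- replicate 2, Sting1-/- replicate 1 or Sting1-/- replicate 2 was left out, 2 without Mcl1Δhep Sting1-/- replicate 1 or Sting1-/- replicate 3, and 244 without Mcl1Δhep Sting1-/- replicate 3.

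**Figure D2:**
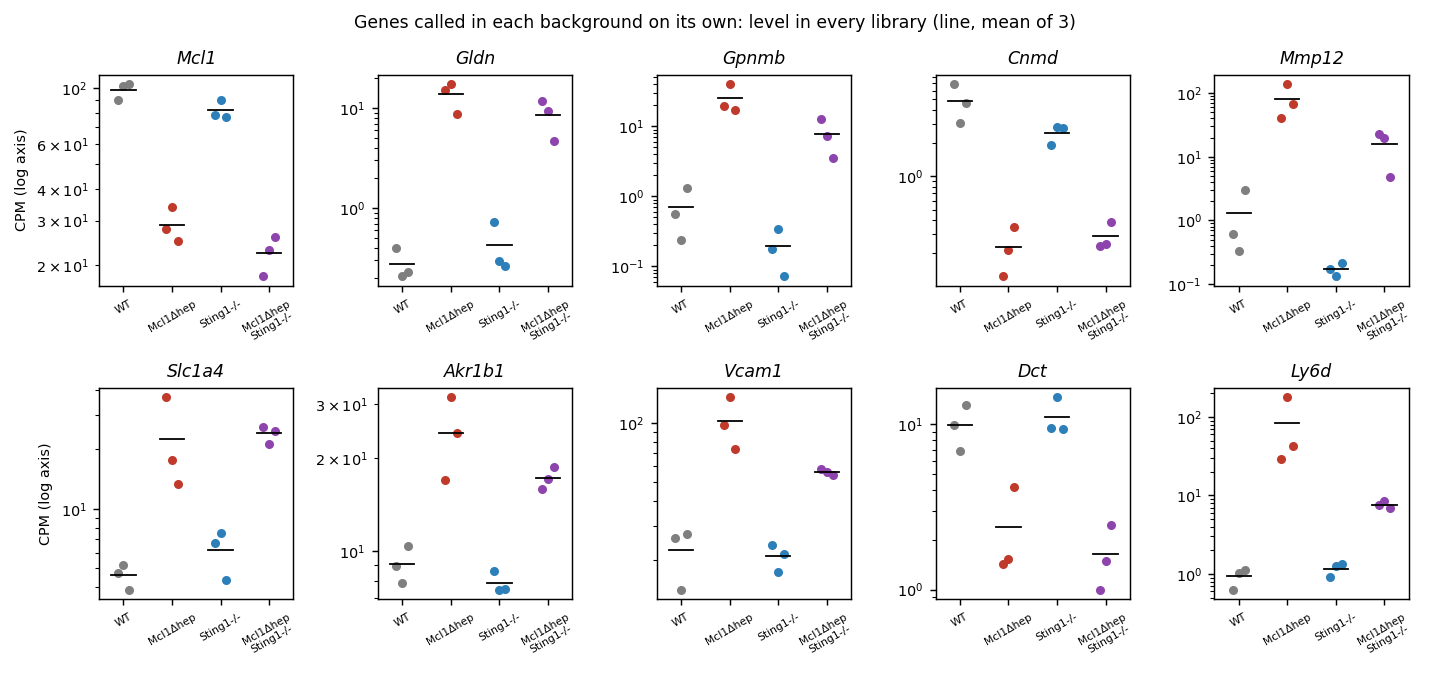
Level of the 10 genes called in each background alone, in CPM on a log axis, with 1 point per library and a line at the mean of the 3 libraries of each genotype. In every panel the Mcl1Δhep and Mcl1Δhep Sting1-/- points lie on the same side of the WT and Sting1-/- points with no overlap.

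Mmp12, a macrophage elastase, had the largest rise among the genes that averaged 1 CPM or more and whose libraries did not overlap in either background. It had 0.607, 0.326 and 3.04 CPM in WT and 40.4, 138.5 and 66.7 CPM in Mcl1Δhep livers, and 0.175, 0.133 and 0.217 CPM in Sting1-/- and 22.9, 19.7 and 4.84 CPM in Mcl1Δhep Sting1-/- livers. The rise was 6.15 on the log2 scale (SE 0.619, adjusted p = 0.000297), with 5.98 and 6.46 in the backgrounds. Gpnmb, a glycoprotein of lipid-laden macrophages, went from 0.554, 0.237 and 1.32 CPM in WT to 19.6, 40.0 and 17.2 CPM in Mcl1Δhep livers. Without Sting1 it went from 0.175, 0.345 and 0.0724 CPM to 12.9, 7.16 and 3.56 CPM, a rise over both of 5.24 (SE 0.476, adjusted p = 0.000226). For these macrophage genes the difference between backgrounds had an unadjusted interaction p of 0.698 for Mmp12 and 0.905 for Gpnmb, which does not show that the changes were equal.

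Gldn encodes gliomedin, a secreted and membrane-bound olfactomedin-domain protein best known from Schwann cells at nodes of Ranvier. Its levels were 0.396, 0.208 and 0.231 CPM in WT, 15.1, 17.4 and 8.82 CPM in Mcl1Δhep, 0.728, 0.292 and 0.265 CPM in Sting1-/- and 11.9, 9.28 and 4.68 CPM in Mcl1Δhep Sting1-/- livers. It had the lowest p of all genes that rose (log2 4.93, SE 0.384, adjusted p = 8.84e-05). Ly6d, a GPI-anchored surface protein of B cell precursors and squamous epithelia that is also found on damaged hepatocytes, was less even between backgrounds. It rose from 0.633, 1.04 and 1.12 CPM to 28.7, 177.3 and 43.2 CPM in the Sting1-intact and from 0.902, 1.27 and 1.33 CPM to 7.55, 8.41 and 6.87 CPM in the Sting1-null background. The overall rise was 4.59 (SE 0.765, adjusted p = 0.00265). The interaction of Ly6d was −3.79 on the log2 scale with an unadjusted p of 0.000621 and an adjusted p of 0.216, which did not pass.

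Vcam1, the adhesion molecule that binds α4 integrins of leukocytes, had 25.8, 14.2 and 27.2 CPM in WT and 97.5, 135 and 73.8 CPM in Mcl1Δhep livers. In Sting1-/- livers it had 24.0, 17.3 and 21.6 CPM, and in Mcl1Δhep Sting1-/- livers a narrow 58.0, 56.0 and 54.3 CPM (log2 1.80, SE 0.213, adjusted p = 0.000466 over both backgrounds). Slc1a4, a neutral amino acid transporter, rose by 2.13 (SE 0.233, adjusted p = 0.000311), from 3.90 to 7.51 CPM over the Mcl1-intact to 13.4 to 36.7 CPM over the Mcl1-deleted libraries. Akr1b1, the aldose reductase, went from 7.48 to 10.3 CPM to 15.9 to 31.5 CPM in the same groups, a rise of 1.27 (SE 0.143, adjusted p = 0.000364).

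On the falling side, Cnmd encodes chondromodulin, an inhibitor of vessel growth known from cartilage. It had 6.89, 3.06 and 4.62 CPM in WT and 0.124, 0.214 and 0.348 CPM in Mcl1Δhep livers, and 1.92, 2.79 and 2.73 CPM in Sting1-/- and 0.234, 0.244 and 0.383 CPM in Mcl1Δhep Sting1-/- livers. Among the called genes that averaged 1 CPM or more and whose libraries did not overlap in either background, this was the largest fall, −3.76 on the log2 scale (SE 0.346, adjusted p = 0.000226). Dct, the dopachrome tautomerase of melanin synthesis, fell by 2.41 on the log2 scale (SE 0.322, adjusted p = 0.00084), from 6.88 to 14.5 CPM in the 6 Mcl1-intact to 1.002 to 4.17 CPM in the 6 Mcl1-deleted libraries.

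Other genes among the 10 largest rises were Lrtm2, Tinag, Gsta13, Spink1, Gsta1 and Mmp13, all with fold changes above 4 on the log2 scale. Mmp13, a collagenase, had 0.0291 to 0.727 CPM in the Mcl1-intact and 1.18 to 8.90 CPM in the Mcl1-deleted libraries (4.48, SE 0.442, adjusted p = 0.000283). Tinag, a basement membrane protein of renal tubules, had at most 0.165 CPM in the Mcl1-intact libraries and 0.474 to 4.28 CPM in the others. Gsta1 and Gsta13, alpha class glutathione transferases of close sequence whose reads could be shared, rose by 4.55 and 4.87. The value of Spink1, a trypsin inhibitor of pancreas, rested on Mcl1Δhep replicate 3, the library with pancreatic markers, which had 12.4 CPM against 0.0821 to 0.979 CPM in the other 5 Mcl1-deleted libraries, and its log2 fold change went from 4.82 to 2.93 (adjusted p = 0.0261) without that library.

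The other large falls were Extl1, Cadm4, Pcp4l1, Hnf4aos, Cpsf4l, Syt3 and Acp3, with log2 fold changes of −2.47 to −1.92. Hnf4aos is an RNA antisense to Hnf4a, so without a stated strand setting its reads and those of Hnf4a cannot be told apart. It had 3.22 to 5.12 CPM in the Mcl1-intact and 0.52 to 1.61 CPM in the Mcl1-deleted libraries (−2.04, SE 0.262, adjusted p = 0.000656). Prkcz, an atypical protein kinase C of cell polarity, fell by less but very evenly, from 20 to 24.6 CPM to 9.12 to 13.8 CPM (−0.94, SE 0.114, adjusted p = 0.000505).

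Genes of a known process were then taken in lists, whose shares called are to be read against the 13.6% of all tested genes. The plot of the gene lists gives every member. In the 9 libraries without Y-linked expression, edgeR called 0 members of 14 of the 34 lists, all of which had called members over the 12 libraries. Fewer libraries and the removal of sex as a difference go together in that fit and cannot be told apart.

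**Figure D3:**
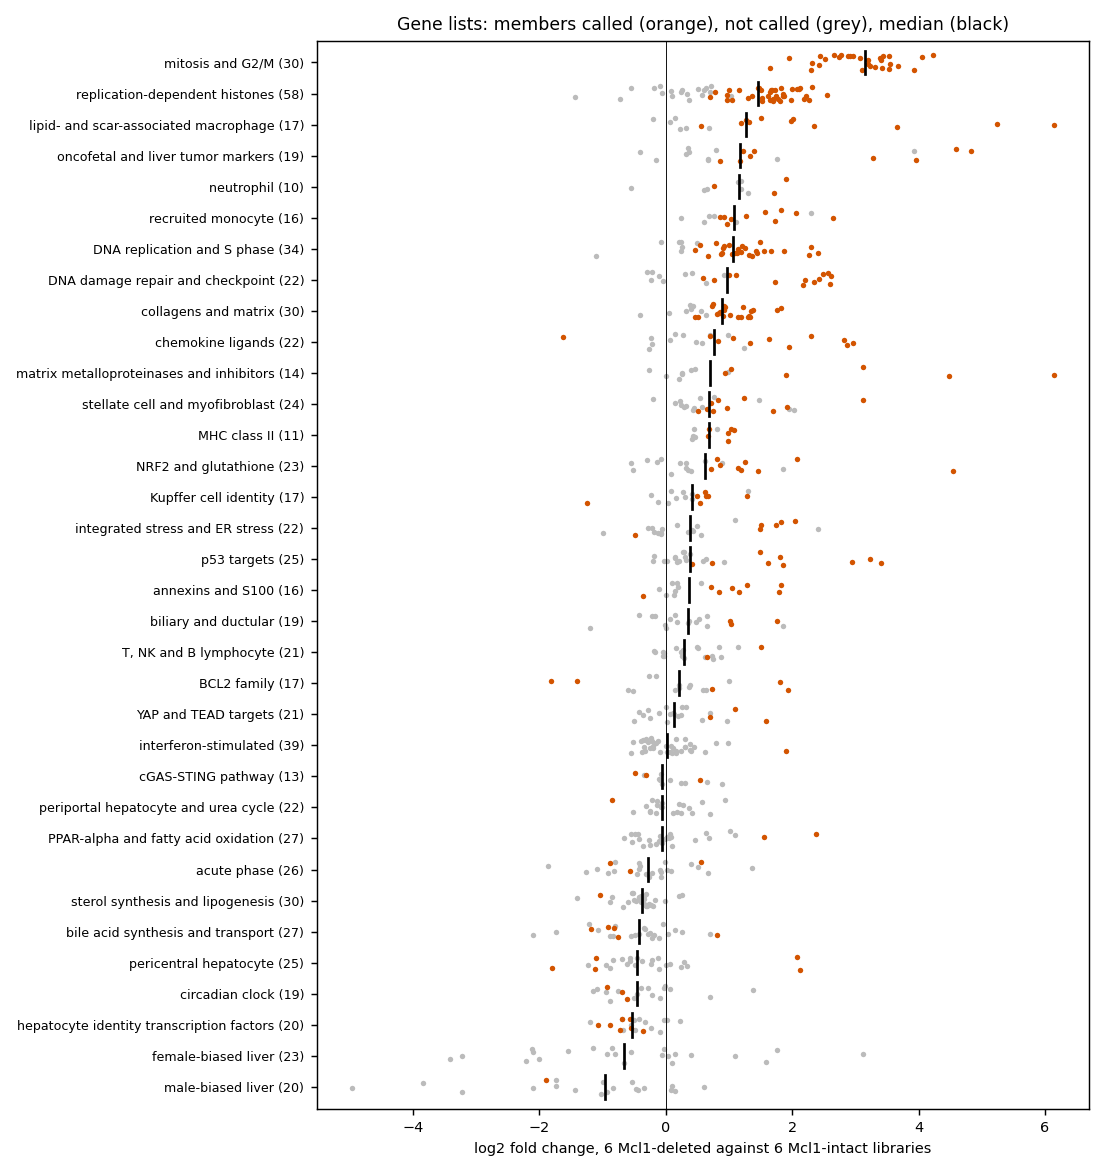
Log2 fold change of the tested members of 34 gene lists over all 12 libraries (horizontal axis), with lists ordered by their median and the number of members tested in parentheses. Orange points were called, grey points were not, and black bars mark medians, which run from 3.15 for mitosis and G2/M genes to −0.96 for male-biased liver genes.

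Proliferation genes had the highest list median. All 30 genes of the mitosis and G2/M list rose, with changes from 1.65 to 4.23 and a median of 3.15 on the log2 scale, where the median of all tested genes was −0.02. Their medians were 3.42 in the Sting1-intact and 2.82 in the Sting1-null background. For 29 of the 30 the libraries did not overlap in either background. In the fits of single backgrounds all 30 had the same sign, and all 30 had an unadjusted p under 0.05 in the Sting1-null fit. In the 9 libraries without Y-linked expression 25 of the 30 were called, and 30 were called with Mcl1Δhep replicates 2 and 3 left out.

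Cdk1, the kinase that drives entry into mitosis, had 1.24, 1.16 and 1.68 CPM in WT and 14.3, 18.2 and 11.5 CPM in Mcl1Δhep livers. In Sting1-/- livers it had 2.53, 1.59 and 2.41 CPM, and in Mcl1Δhep Sting1-/- livers 16, 11.6 and 5.88 CPM, so the groups were apart in both backgrounds (2.88, SE 0.289, adjusted p = 0.000297). Birc5, which encodes survivin of the chromosomal passenger complex, rose by 3.42 (SE 0.367, adjusted p = 0.000311), from 0.369 to 1.28 CPM to 3.37 to 11.4 CPM. Ube2c, the ubiquitin-conjugating enzyme of the anaphase-promoting complex, rose by 3.55 (SE 0.386, adjusted p = 0.000311), from 0.264 to 0.728 CPM to 2.24 to 8.45 CPM. Outside the list, the spindle checkpoint gene Mad2l1 and the sororin gene Cdca5 were among the 5 genes with the lowest p that rose, with changes of 2.11 and 2.99. As the plot of the mitosis genes by library shows, within both Mcl1-deleted genotypes replicate 1 was highest for most members and replicate 3 lowest for all 30.

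**Figure D4:**
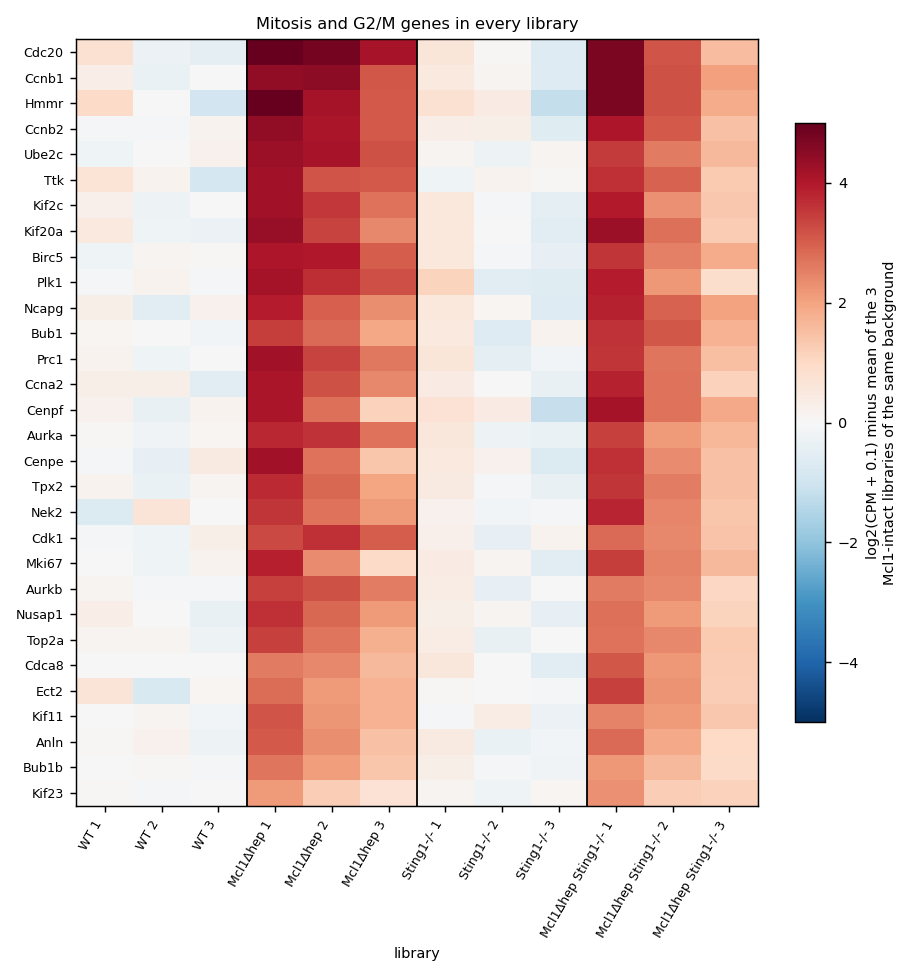
Level of the 30 mitosis and G2/M genes in the 12 libraries, as log2(CPM + 0.1) minus the mean of the 3 Mcl1-intact libraries of the same background, with genes ordered by their change. The Mcl1Δhep and Mcl1Δhep Sting1-/- columns are above 0 (red) for at least 29 of the 30 genes, and the WT and Sting1-/- columns stay near 0.

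Promoters of mitotic genes commonly carry CCAAT boxes and the cell cycle genes homology region (CHR), TTTGAA. Through the CHR, the DREAM complex holds such genes silent in resting cells. The letters CCAAT and TTTGAA were searched on both strands of RefSeq promoters (GRCm38.p6, from 250 bases before to 50 after a start, the first listed start of a gene). Promoters were matched for 26 of the 30 mitosis genes. CCAAT was present in 22 of these (84.6%) and TTTGAA in 20 (76.9%), with both in 18 (69.2%). Among all 27025 promoters of the table the shares were 37.9, 18.1 and 7.12%, and among the 11045 promoters of tested genes 38.8, 12.6 and 5.25%. Over the shared genes, of the 997 that rose and had a promoter, 41.7% held CCAAT, 19.1% TTTGAA and 10.8% both, and of the 549 that fell, 37.5, 11.8 and 4.01%. The 150 bases before the start are shown for the 3 mitosis genes with the lowest p, to let the letters be seen beside the changes, with CCAAT and TTTGAA (or their reverse complements ATTGG and TTCAAA) in capitals.
Cdk1 (chr10:69352913-69353062, minus strand): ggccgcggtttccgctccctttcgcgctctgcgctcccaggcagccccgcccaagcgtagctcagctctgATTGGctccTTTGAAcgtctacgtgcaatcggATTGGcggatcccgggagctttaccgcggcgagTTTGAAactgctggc
Ube2c (chr2:164769779-164769928, plus strand): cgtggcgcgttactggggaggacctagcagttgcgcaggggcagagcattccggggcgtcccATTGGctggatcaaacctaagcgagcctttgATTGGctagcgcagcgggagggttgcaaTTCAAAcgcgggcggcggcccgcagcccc
Birc5 (chr11:117849087-117849236, plus strand): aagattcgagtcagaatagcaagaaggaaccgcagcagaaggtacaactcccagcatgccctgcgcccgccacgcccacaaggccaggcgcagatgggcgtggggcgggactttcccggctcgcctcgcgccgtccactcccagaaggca
Cdk1 held 4 matches and Ube2c 3, with the TTTGAA nearest the start at 15 to 10 and at 29 to 24 bases before it. Birc5 held 0 in this window.

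DNA replication genes had a smaller list median than the mitosis genes. Of 34 tested, 27 rose and 0 fell, with a median of 1.07, and 1.04 and 0.85 in the backgrounds. Gins2, a subunit of the replicative helicase, had 0.415 to 0.757 CPM in the Mcl1-intact and 1.67 to 4.89 CPM in the Mcl1-deleted libraries (2.41, SE 0.253, adjusted p = 0.000311). Mcm5, another helicase subunit, rose by 1.87 (SE 0.227) and Rrm2, the small subunit of ribonucleotide reductase, by 1.496 (SE 0.182), both with an adjusted p of 0.000494 and no overlap of the 6 against 6 libraries. Of the 34, 11 were called in the 9 libraries without Y-linked expression.

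Replication-dependent histone genes, whose messages end in a stem-loop instead of a poly(A) tail and are seen in total RNA, rose for 39 of the 58 tested, with 0 lower. Near-identical copies make the counts of single histone genes uncertain. Their median of 1.46 was made of 1.97 in the Sting1-intact and 0.74 in the Sting1-null background. H2bc15 had 2.14, 1.84 and 1.88 CPM in WT and 10.6, 12.4 and 10.9 CPM in Mcl1Δhep livers, but 2.59, 1.78 and 2.82 CPM in Sting1-/- and 5.35, 7.12 and 4.08 CPM in Mcl1Δhep Sting1-/- livers (1.86, SE 0.252, adjusted p = 0.000886). Of the 50 histone genes with a promoter, 76.0% held TATAA and 84.0% CCAAT, where 25.5 and 37.9% of all promoters and 14.3 and 38.8% of those of tested genes did. With the 9 libraries without Y-linked expression 11 of the 58 were called.

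DNA damage repair and checkpoint genes rose for 13 of 22, with 0 lower and a median of 0.96. Rad54l, a DNA translocase of homologous recombination, had 0.148 to 0.478 CPM in the Mcl1-intact and 0.684 to 1.80 CPM in the Mcl1-deleted libraries, with no overlap (2.21, SE 0.318, adjusted p = 0.00121). Among 25 targets of p53, the transcription factor of the damage response, 9 rose and 0 fell, and the median was 0.38. Eda2r, a death domain receptor on the X chromosome, had 0.859 to 1.54 CPM in the Mcl1-intact and 2.60 to 5.19 CPM in the Mcl1-deleted libraries (1.62, SE 0.172, adjusted p = 0.000311). It was 1 of the named genes with a larger change in the Sting1-null background (1.73) than in the Sting1-intact one (1.5). Phlda3, an inhibitor of AKT, rose by 1.86 and Psrc1, a spindle protein, by 3.41.

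In the BCL2 family itself, 17 genes were tested, of which 3 rose and 2 fell. Beside Mcl1, Bmf, a BH3-only activator of apoptosis, fell by 1.41 on the log2 scale (adjusted p = 0.033), with 8.90 to 32.6 CPM in the Mcl1-intact and 2.75 to 12.1 CPM in the Mcl1-deleted libraries. The antiapoptotic Bcl2a1b and Bcl2a1d, leukocyte genes of a family with near-identical copies, rose by 1.80 (SE 0.358) and 1.93 (SE 0.523), and Bok by 0.73.

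Oncofetal and liver tumor markers rose for 9 of 19, with 0 lower and a median of 1.17. Igf2bp3, a fetal RNA-binding protein, had 0.204 to 0.748 CPM in the Mcl1-intact and 1.90 to 6.05 CPM in the Mcl1-deleted libraries and rose in both together (3.46 with and 3.10 without Sting1, over both 3.28, SE 0.407, adjusted p = 0.000527). Golm1, a Golgi protein raised in liver disease, rose by 1.23 (SE 0.204, adjusted p = 0.0026), with 1.74 and 0.72 in the backgrounds. Of 19 biliary and ductular genes, 3 rose: Krt8, Krt18 and Cldn4. Krt8, a keratin of hepatocytes and bile duct cells, had 212, 198 and 237 CPM in WT and 430, 814 and 387 CPM in Mcl1Δhep livers. In the Sting1-null background 193, 173 and 125 CPM stood against 359, 288 and 145 CPM, so that the groups overlapped there (1.01, SE 0.253, adjusted p = 0.0215). The cholangiocyte markers summed to 32.0 to 62.4 CPM in the Mcl1-intact and 38.1 to 70.7 CPM in the Mcl1-deleted libraries.

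Matrix genes rose in most of their list. Of 30 collagens and matrix genes, 22 rose and 0 fell, with a median of 0.89, and 1.01 and 0.76 in the backgrounds. In the Sting1-null fit, 24 of the 30 had an unadjusted p under 0.05 in the direction of the Sting1-intact fit. Col1a1, the main fibrillar collagen chain of scar, had 24.1, 11.7 and 9.02 CPM in WT and 61.3, 72.7 and 44.0 CPM in Mcl1Δhep livers, and 13.5, 11.6 and 7.43 CPM in Sting1-/- and 56.0, 23.7 and 22.8 CPM in Mcl1Δhep Sting1-/- livers (1.82, SE 0.297, adjusted p = 0.00244). Col3a1 rose by 1.38 (SE 0.234, adjusted p = 0.0029) and Thbs1, a matricellular activator of TGF-β, by 1.76 (SE 0.271, adjusted p = 0.00169). In the 9 libraries without Y-linked expression 3 of the 30 were called, with a list median of 0.60.

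Stellate cell and myofibroblast genes rose for 10 of 24, with a median of 0.69. Cygb, the cytoglobin of quiescent stellate cells, had 7.46 to 13.01 CPM in the Mcl1-intact and 12.1 to 24.7 CPM in the Mcl1-deleted libraries (0.96, SE 0.144, adjusted p = 0.00147). Timp1, the inhibitor of metalloproteinases made by activated stellate cells, rose by 3.12 (SE 0.612, adjusted p = 0.0067), with 8.47 CPM in Mcl1Δhep replicate 2 against 0.414 to 1.84 CPM in the other 5 Mcl1-deleted libraries. The 5 stellate markers Lrat, Reln, Des, Pdgfrb and Dcn summed to 319 to 465 CPM in the Mcl1-intact and 461 to 596 CPM in the Mcl1-deleted libraries, and their part in these results was not tested. Of 14 metalloproteinases and inhibitors, 6 rose, among them the gelatinase gene Mmp2 (1.03, SE 0.177, adjusted p = 0.0031), whose change was 1.04 and 1.02 in the backgrounds.

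Macrophage genes were taken in lists by the state of the cell. Of 17 genes of lipid- and scar-associated macrophages, 11 rose and 0 fell, with a median of 1.26, and 1.69 and 0.83 in the backgrounds. Trem2, the lipid receptor of these cells, had 0.765, 0.712 and 0.792 CPM in WT and 5.57, 14.5 and 8.73 CPM in Mcl1Δhep livers, and 0.437, 0.292 and 0.217 CPM in Sting1-/- and 5.51, 4.78 and 1.56 CPM in Mcl1Δhep Sting1-/- livers. Its change was 3.66 with and 3.65 without Sting1 (over both 3.65, SE 0.343, adjusted p = 0.000226). Of 17 genes of resident Kupffer cells, 6 rose and 1 fell, with a median of 0.41. Clec1b rose by 0.63 (SE 0.116), C1qc, a complement subunit, by 0.55 (SE 0.116) and Spic, a factor of iron-recycling macrophages, by 1.28 (SE 0.273), whereas the haemoglobin scavenger receptor Cd163 fell by 1.25 on the log2 scale (adjusted p = 0.018). Cd163 changed by −2.07 with and −0.48 without Sting1, where the groups overlapped. Its interaction had an unadjusted p of 0.0012 and an adjusted p of 0.233, which did not pass.

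Recruited monocyte genes rose for 10 of 16, with 0 lower and a median of 1.07, and 1.63 and 0.52 in the backgrounds. Of those called, Lyz2, Plac8, S100a4, F13a1 and Ms4a6c overlapped in the Sting1-null background. Their unadjusted p in the Sting1-null fit was 0.231, 0.155, 0.16, 0.0876 and 0.0569. The other called genes, Ccr2, Cx3cr1, Cd68, Ms4a7 and Vcan, did not overlap there. Ccr2, the receptor for monocyte entry, had 3.14, 1.48 and 2.08 CPM in WT, 5.92, 14.1 and 5.79 CPM in Mcl1Δhep, 1.80, 1.91 and 2.15 CPM in Sting1-/- and 4.51, 5.48 and 3.59 CPM in Mcl1Δhep Sting1-/- livers (1.58, SE 0.275, adjusted p = 0.00344). Ms4a7 rose by 2.06 (SE 0.291) and the lysosomal Cd68 by 1.03 (SE 0.165). The macrophage markers Clec4f, Vsig4, Adgre1, Csf1r and Cd68 were summed without TMM factors. The sums were 246 to 412 CPM in the Mcl1-intact and 408 to 505 CPM in the Mcl1-deleted libraries. With TMM factors, edgeR called Cd68 over all 12 libraries. It did not call Clec4f, Vsig4, Adgre1 and Csf1r (adjusted p = 0.164, 0.209, 0.083 and 0.886). The part of these markers in the results of these lists was not tested. In the 9 libraries without Y-linked expression 5 of the 17 lipid- and scar-associated genes and 2 of the 16 monocyte genes were called. For the 17 Kupffer cell genes edgeR called 0 there, with 8 higher and 1 lower at an unadjusted p under 0.05.

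Among chemokine ligands, 10 of 22 rose and 1, the B cell attractant Cxcl13, fell (−1.62, adjusted p = 0.0187). Ccl2, the ligand of CCR2, had 0.792, 0.119 and 0.991 CPM in WT and 4.80, 3.92 and 3.04 CPM in Mcl1Δhep livers, and 0.378, 0.451 and 0.579 CPM in Sting1-/- and 2.01, 1.998 and 1.42 CPM in Mcl1Δhep Sting1-/- livers. Both backgrounds showed a separation without overlap (2.29, SE 0.361, adjusted p = 0.00195). Ccl7 and Ccl4 rose by 2.81 (SE 0.359) and 2.97 (SE 0.497), with at most 0.211 CPM in any Mcl1-intact library.

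Other leukocyte lists were less uniform. MHC class II genes rose for 6 of 11, with all 11 above 0 (0.41 to 1.08) and H2-Aa at 29.9 to 59.7 CPM in the Mcl1-intact and 51.5 to 125 CPM in the Mcl1-deleted libraries (0.99, SE 0.247, adjusted p = 0.0216). Changes with and without Sting1 were 1.35 and 0.63 for H2-Aa, 1.60 and 0.55 for H2-Ab1, and 1.27 and 0.70 for H2-DMb1. Their unadjusted p in the Sting1-null fit was 0.0764, 0.123 and 0.0211, and H2-Aa and H2-Ab1 overlapped there. EdgeR called 0 of the 11 in the 9 libraries without Y-linked expression, with 6 higher at an unadjusted p under 0.05 and a median of 0.78, and 1 was called with Mcl1Δhep replicates 2 and 3 left out. Of 10 neutrophil genes 3 rose, Csf3r, Mmp8 and Ltf, with neutrophil markers at 2.39 to 6.29 CPM in the Mcl1-intact and 5.87 to 24.6 CPM in the Mcl1-deleted libraries. Mmp8 and Ltf were low, with means of 0.28 and 0.3251 CPM over all libraries. The median change of the neutrophil list was 1.904 with and 0.4487 without Sting1. In the Sting1-null fit the unadjusted p was 0.07525 for Csf3r, 0.2918 for Mmp8 and 0.1192 for Ltf. EdgeR called 0 of the neutrophil and 0 of the lymphocyte genes in the 9 libraries without Y-linked expression, with 3 and 2 higher at an unadjusted p under 0.05. Over all 12 libraries, lymphocyte genes rose for 2 of 21, Cd8a by 1.502 (SE 0.329, adjusted p = 0.0117) and Cd22 by 0.65 (SE 0.191, adjusted p = 0.0413).

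Interferon-stimulated genes had few called members. Of 39 tested, 1 rose and 0 fell, a share of 2.56% beside 13.6% of all tested genes, and the median was 0.03, with −0.13 to 0.27 over the alternatives. The 1 gene was Ifi27l2b, with 3.83 to 9.26 CPM in the Mcl1-intact and 8.51 to 35.3 CPM in the Mcl1-deleted libraries (1.91, SE 0.289, adjusted p = 0.0016). Cxcl10 was at 0.99 (SE 0.331, adjusted p = 0.0665). In the cGAS-STING list, 13 genes were tested, and Ifi204, a DNA sensor of the p200 family, rose (0.55, adjusted p = 0.0386). Its groups overlapped in the Sting1-null background, with an unadjusted p of 0.0619 in the Sting1-null fit. Irf3, the transcription factor downstream of STING1, fell from 43.6 to 48.4 CPM to 34.7 to 41.7 CPM (−0.31, SE 0.076, adjusted p = 0.0199). The change was small, and the 6 libraries on each side did not overlap. Enpp1, which degrades the messenger cGAMP, fell by 0.48 on the log2 scale (adjusted p = 0.0461) and lost its call under 18 of 26 alternatives. Sting1 was at 0.65 (SE 0.227, adjusted p = 0.0786) and Cgas at 0.89 (SE 0.322, adjusted p = 0.086), and neither was called. The change of Cgas was 1.31 with and 0.49 without Sting1. By quantitative PCR, the paper reported cGAS and STING expression as higher in Mcl1Δhep than in WT livers.

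Stress and adhesion genes gave a mixed picture. Of 23 NRF2 and glutathione genes, 9 rose and 0 fell (median 0.63). Gstm3 had 33.2 to 56.8 CPM in the Mcl1-intact and 66.4 to 345 CPM in the Mcl1-deleted libraries (2.07, SE 0.322, adjusted p = 0.0018), and Hmox1, the haem oxygenase, 13.8 to 30.9 CPM and 40.2 to 103 CPM (1.46, SE 0.26, adjusted p = 0.00396), with changes of 2.18 with and 0.74 without Sting1. In the list of integrated stress and ER stress, 5 of 22 rose and 1 fell. Atf3, a stress-induced transcription factor, rose by 2.05 (SE 0.387, adjusted p = 0.0055) and Gdf15, a stress cytokine, by 1.49 (SE 0.288, adjusted p = 0.00616). Annexins and S100 proteins rose for 7 of 16 and fell for 1. Of those that rose, Anxa1, Anxa2 and Anxa5 had an unadjusted p under 0.05 in the Sting1-null fit. That p was 0.14 for Anxa3, 0.16 for S100a4, 0.0677 for S100a6 and 0.155 for S100a11. Anxa2 had 13.4 to 19.7 CPM in the Mcl1-intact and 24.7 to 151 CPM in the Mcl1-deleted libraries (1.79, SE 0.326, adjusted p = 0.00448). Of the 16, edgeR called 0 in the 9 libraries without Y-linked expression, with 5 higher and 1 lower at an unadjusted p under 0.05. With Mcl1Δhep replicates 2 and 3 left out 3 rose, and the median went from 0.38 to 0.14. Of 21 YAP and TEAD targets 3 rose, among them Myof (1.10, SE 0.113, adjusted p = 0.000311) and the receptor kinase gene Axl (0.70, SE 0.11, adjusted p = 0.00195).

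The falling shared genes included transcription factors of hepatocyte identity. Of 20 tested, 7 fell and 0 rose, with a median of −0.53, and −0.69 and −0.32 in the backgrounds. Foxa2, a pioneer factor of the liver, had 38.9, 39.9 and 31.5 CPM in WT and 15.2, 14.2 and 17.8 CPM in Mcl1Δhep livers, and 20.02, 28.6 and 30.4 CPM in Sting1-/- and 16.8, 22.3 and 15.5 CPM in Mcl1Δhep Sting1-/- livers, where 1 library overlapped (−0.88, SE 0.165, adjusted p = 0.00521). Foxa1, a factor of the same family, fell by 1.07 on the log2 scale (SE 0.239, adjusted p = 0.0127), with no overlap of the 6 against 6 libraries. Of the 20, edgeR called 0 in the 9 libraries without Y-linked expression, with 9 lower at an unadjusted p under 0.05 and a list median of −0.46.

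Genes of bile acid uptake and conjugation were among those that fell. Of 27 genes of bile acid synthesis and transport, 4 fell and 1 rose. Slc10a1, the sodium-dependent bile acid importer NTCP, had 852, 658 and 796 CPM in WT and 292, 169 and 359 CPM in Mcl1Δhep livers, and 745, 762 and 608 CPM in Sting1-/- and 287, 433 and 441 CPM in Mcl1Δhep Sting1-/- livers. It was lower without overlap in both backgrounds (−1.18, SE 0.202, adjusted p = 0.00316). Slc27a5, the bile acid-CoA ligase, fell by 0.76 (SE 0.137, adjusted p = 0.00415) and the organic anion transporter gene Slco2b1 by 0.82 (SE 0.162, adjusted p = 0.00696) on the log2 scale. EdgeR called 0 of the 27 in the 9 libraries without Y-linked expression, with 7 lower and 1 higher at an unadjusted p under 0.05.

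Other hepatocyte programs had few called members. In the pericentral list, 3 of 25 fell and 2, Slc1a4 and Gstm3, rose, and in the periportal and urea cycle list 1 of 22 fell, Pigr, the receptor that carries IgA into bile (−0.85, SE 0.203, adjusted p = 0.0179). Among 30 genes of sterol synthesis and lipogenesis 1 fell, Srebf1, the master regulator of lipogenesis, from 486 to 706 CPM to 159 to 486 CPM (−1.03, SE 0.212, adjusted p = 0.00814). The median of these 30 was −0.37, with 6 lower and 0 higher at an unadjusted p under 0.05 in edgeR, and DESeq2 called 4 lower. Changes with and without Sting1 were −1.30 and −0.77 for Srebf1 and −1.54 and −0.16 for Fasn, which was not called. Of 27 genes of PPARα and fatty acid oxidation 2 rose, led by Pdk4, the kinase that turns off pyruvate oxidation, with 1.27 to 4.38 CPM in the Mcl1-intact and 7.77 to 19.2 CPM in the Mcl1-deleted libraries (2.37, SE 0.268, adjusted p = 0.000366). Acute phase genes gave 2 lower, Saa4 and Crp, and 1 higher, Hamp, of 26. Of 19 circadian clock genes 3 fell, among them Hlf by 0.92 (SE 0.181, adjusted p = 0.00672) and Cry2 by 0.61 (SE 0.155, adjusted p = 0.0238) on the log2 scale. The hour of collection is not given in the sources used here. The plot of list levels by library sets these lists side by side.

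**Figure D5:**
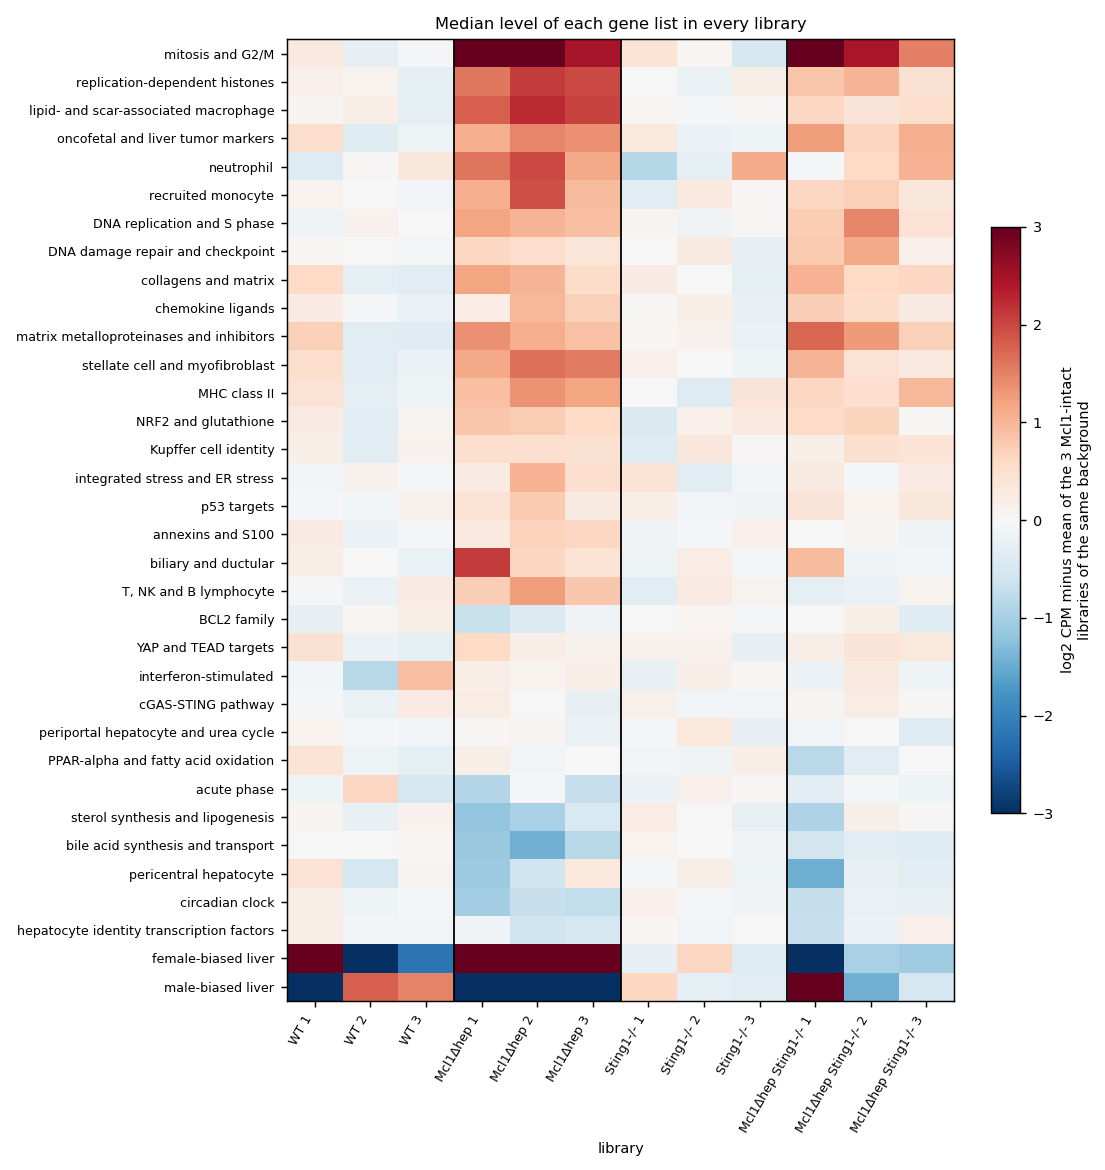
Median log2 CPM of the members of each gene list in each of the 12 libraries, minus the mean of the 3 Mcl1-intact libraries of the same background, with colours held at 3 in both directions and lists ordered by their change over all 12 libraries. Proliferation, histone, macrophage and matrix lists are red in the Mcl1Δhep and Mcl1Δhep Sting1-/- columns, paler in the latter, and the sex-biased lists follow WT replicates 2 and 3 and Mcl1Δhep Sting1-/- replicate 1.

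The shared genes also differed from the other genes in level and type. Those that rose had a median of 3.52 CPM over the 12 libraries and those that fell 26.1 CPM, where all tested genes had 10.6 CPM, and levels per gene depend on its length as well. Over 100 CPM were 30 of the 1310 genes that rose (2.29%) and 141 of the 746 that fell (18.9%), beside 9.02% of all tested genes. Protein-coding genes were 96.9% of the genes that rose and 91.6% of those that fell, and long noncoding RNAs were 2.52 and 7.37%, beside 90.7 and 5.76% of all tested genes.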

How the data were processed

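Total RNA of 12 mouse livers, 3 per genotype, was sequenced on an Illumina NovaSeq, and the deposited table holds the authors' counts of reads for each Ensembl gene, as integers that were not normalized. The submitters' processing notes name STAR, featureCounts and GRCm39. Versions and the strand setting were not given in the sources used here, so reads of overlapping and antisense genes cannot be told apart, and the labels and the methods name different extraction kits. Gene names and positions came from GENCODE vM39, which holds 39533 of the 40551 identifiers. Depth was 28826367 to 45266387 counts per library, with 3 mice per genotype.

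Counts were fitted with edgeR 4.0.16 in R 4.3.3 (TMM factors, filterByExpr by genotype, glmQLFit and glmQLFTest, Sting1 and Mcl1 genotype as additive terms, common dispersion 0.0837, log2 CPM with a prior count of 2). SE values are the log2 fold change divided by the root of F. Directions per background came from a fit with 4 genotype means, and each background was also fitted on its own 6 libraries. Named genes are Mcl1 and Sting1, the 10 largest rises and falls and the 5 lowest p-values per direction (at least 1 CPM, no overlap in either background, not on X or Y) and the 3 lowest p-values per list, and other genes were named after their values were seen. Some genes that this rule names are not reported here. Members, lists and tests were chosen with earlier results of these data known. In simulated data with 200 of 15070 genes changed in both backgrounds by a log2 value of 2, the test of the Mcl1 main effect recovered 183 with 10 false calls. Another 200 genes were changed in the Mcl1Δhep Sting1-/- group only, and these were left out of the false calls. The simulation held no sex difference and no outlying library. DESeq2 1.42.0, other scalings, filters, covariates, a replicate block and left-out libraries were alternatives. Libraries of a genotype were checked for duplicates and differed beyond sampling noise. Tables were handled with pandas 2.3.3 and numpy 2.4.6 and plots drawn with matplotlib 3.10.9 under Python 3.11.15.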

Additional observations from a re-analysis of the deposited data

Results flagged for a closer look

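In 16 of 266 sets of 6 libraries with the same Mcl1 status, over the named genes and the cell type marker sums, 1 library lay far from the other 5 by Dixon's ratio of the gap to the range, which chance gives for about 1 set in 20. Among the Mcl1-deleted libraries, Mcl1Δhep replicate 3 was far above the others for the pancreatic acinar marker sum (ratio 0.955, 8952 CPM) and the skeletal muscle marker sum (0.93, 1781 CPM). Mcl1Δhep replicate 2 was high for Ccr2 (0.636, 14.1 CPM) and for the T and NK cell marker sum (0.647, 6.63 CPM). Mcl1Δhep Sting1-/- replicate 3 was high for Cyp4a31 (0.706, 14.2 CPM) and low for Ifi27l2b (0.645, 8.51 CPM) and Anxa5 (0.694, 104.7 CPM), and Mcl1Δhep Sting1-/- replicate 1 was low for Ifi204 (0.645, 10.7 CPM). Among the Mcl1-intact libraries, WT replicate 1 was high for Mmp2 (0.768, 9.23 CPM) and WT replicate 3 for Myof (0.788, 6.04 CPM). WT replicate 2 was high for the skeletal muscle marker sum (0.804, 9.27 CPM) and the adipose marker sum (0.803, 15.2 CPM), and low for the sinusoidal endothelium marker sum (0.662, 193 CPM), Anxa5 (0.689, 48.2 CPM) and Gins2 (0.626, 0.415 CPM). Sting1-/- replicate 2 was low for Ltf (0.694, 0 CPM). These libraries were kept in the values of the report.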

How the results depend on the processing

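All 2056 shared genes that could be tested kept their sign under each of the 26 alternatives, whereas their number moved. Every alternative reuses all or part of the libraries that chose these genes, so the kept sign follows in part from the selection. Of 104 named genes called, 41 were called under every alternative and 17 lost the call under at least 8. Genes called lower numbered 370 with upper quartile factors, 478 with no filter on low counts and 1144 with DESeq2. Over all 12 libraries, 2001 genes were called with Y-linked expression as a covariate. The share of small structured RNA as a covariate gave 1503 called genes, and both covariates gave 1770. The 9 libraries without Y-linked expression, filtered anew, gave 188 calls, all shared (157 higher, 31 lower), and over the same genes, chosen after seeing the data, 304 (249 and 55). With Mcl1Δhep replicates 2 and 3 left out, also chosen after seeing the data, 1238 were called, all shared (846 and 392). Contrasts of the 12-library model called 3050 genes in the Sting1-intact and 121 in the Sting1-null background, 115 in both. Asking for no overlap in either background left 1267 shared genes.

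Leaving out 1 library at a time gave 1193 (without WT replicate 3) to 2297 (without Mcl1Δhep Sting1-/- replicate 3) called genes, 1193 to 2297 shared, 867 to 1486 higher and 326 to 811 lower, with 1325 without Mcl1Δhep replicate 2, 1298 without WT replicate 1 and 1269 without WT replicate 2. It gave 0 to 1574 interaction calls, 170 (without WT replicate 2) to 3547 (without Mcl1Δhep replicate 1) calls in the Sting1-intact and 1 to 388 in the Sting1-null background, and 0 to 244 in both. The share of Sting1-intact calls with the same direction in the Sting1-null livers was 69.35 to 97.7%, and 83.8% with the contrasts. The cause of these shifts was not tested. The replicate numbers were not taken as pairs. Deviations of same-numbered mice correlated at −0.0247 to 0.133 in the Sting1-intact and 0.0675 to 0.251 in the Sting1-null background. Those of unlike-numbered mice correlated at −0.108 to 0.127 and −0.174 to −0.00607. Whether same-numbered mice had something in common was not tested, and a replicate block called 1668 genes. Low counts limit genes under 1 CPM, where a few reads decide a value.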
